A study of Rattus norvegicus with 37 samples.

Results

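The genes described here are those whose level was higher in every liver of the SCI + In-Cage Activity set than in any liver of the SCI + Exercise set, where SCI is spinal cord injury. A gene was taken when its mean raw count over the 37 libraries was 10 or more and its lowest CPM, the read count scaled to a normalized library of 1000000 reads, among the 15 In-Cage livers was above its highest CPM among the 22 Exercise livers. This rule found 80 of the 24613 genes in the table, and 12363 genes met the minimum count. The share of those 12363 genes that the rule took was 0.647%. The same rule turned round, with every Exercise liver above every In-Cage liver, took 420 genes or 3.4%. The 80 genes were thus chosen by their CPM in the 2 sets, so those values are a description and carry no test.

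All rats were female Sprague-Dawley rats, 8 to 9 weeks old at injury by a weight-based estimate, and RNA was prepared from a piece of liver with poly-A selection. The In-Cage set held 5 uninjured rats in standard cages (No SCI + Standard), 5 rats with a T2 contusion of 25 g-cm in tiny cages (CONT SCI + Tiny) and 5 with the same contusion in large cages (CONT SCI + Large). The Exercise set held 4 uninjured rats (No SCI), 4 with the contusion (CONT SCI), 4 with a complete T2 transection (TX SCI), 5 with the contusion followed by swimming (CONT SCI + SWIM) and 5 with the contusion followed by shallow water walking (CONT SCI + SWW), all of them in tiny cages. Cages held 2 rats each, and by the study's methods cage mates came from the same group. Which rats shared a cage is not given, and the tests below treat all rats as independent. The labels put tissue collection at 11.5 weeks after injury, or the same age without injury, and at 8.5 weeks for TX SCI. They start the exercise 10 days after injury and run it on 5 days a week for 8 weeks, while the study's text gives a later start, a longer course and a later tissue collection for the exercised rats. Depth, and whatever else went with running the sets as separate experiments, varied with the set and cannot be told apart from it. Housing did so only in part, since contused rats in tiny cages without exercise were present in both sets.

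The liver is made mostly of hepatocytes, which handle fats, sugars, bile acids and plasma proteins, beside endothelial, stellate, immune and bile duct cells. It receives sympathetic and parasympathetic nerves, and an injury of the upper thoracic cord disconnects much of the sympathetic outflow from the brain. Restricted housing limits how far a rat moves, while swimming and shallow water walking add activity on top of that housing. In a piece of whole tissue, fewer cells of a type and less RNA per cell cannot be told apart.

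The count table names genes by Ensembl identifier alone and does not pair them with symbols, and the RefSeq table at hand matched 0 of the identifiers. The gene lists, the cell type markers and the check of the tissue by its markers therefore could not be applied, and no function is given for any of the 80 genes. The 4 genes printed by identifier below are the pair with the widest separation between the sets and the 2 that passed a test within a set.

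Depth separated the sets as well. Reads assigned to genes came to 20066978 to 25130252 in the In-Cage libraries and 26190364 to 36761953 in the Exercise libraries, with no overlap. The trimmed mean of M values (TMM) scaling factor ran from 0.809 to 0.997 in the In-Cage set and from 0.961 to 1.16 in the Exercise set. The 10 most counted genes took 23.8 to 32.3% of the counts of an In-Cage library and 21.7 to 26.4% of an Exercise library. All 80 genes were counted in all 37 libraries, the lowest single value being 11 counts, so none of them rests on zeros. Their mean count ran from 29.4 to 43786, with 32 genes at 1000 or more and 7 under 100. The rule was also applied after thinning every library to the smallest, with the result given further below. Thinning evens out the number of counts and cannot separate depth from whatever else went with the set.

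Among the 80 genes the In-Cage mean was 1.3 to 3.47 times the Exercise mean, with a median of 1.72 and quartiles of 1.63 and 1.92. For 16 genes the ratio was 2 or more, for 55 it lay between 1.5 and 2, and for 9 it was below 1.5. On a log2(CPM + 1) scale the 80 genes differed between the sets by a median of 0.76, beside 0.02 over all 12363 genes, whose quartiles were -0.31 and 0.30. A difference at least as large as the smallest among the 80 (0.36) was seen in 2467 genes, or 20% of those with the minimum count. The within-group standard deviation of the 80 genes on that scale had a median of 0.168 in the In-Cage set and 0.194 in the Exercise set, beside 0.232 and 0.234 over all genes. The rule favours genes with little spread inside a set, so this narrowness is in part fixed by the choice.

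**Figure D1:**
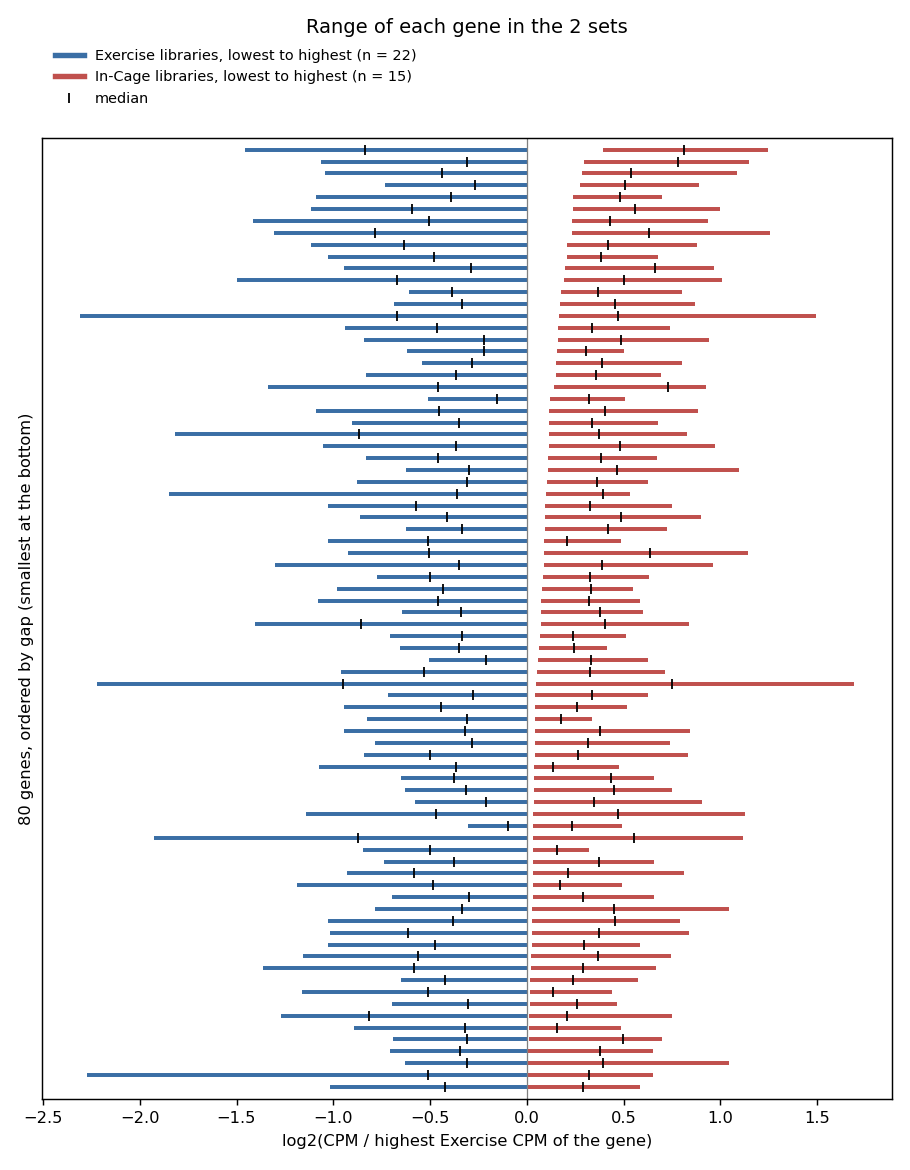
Each line is 1 of the 80 genes, ordered by the gap between the sets. The bars run from the lowest to the highest library of the Exercise set (blue, n = 22) and of the In-Cage set (red, n = 15) as log2 of CPM over the highest Exercise CPM of that gene, and the ticks mark medians. The red bars start between 1.00 and 1.32 times the end of the blue ones, and the medians of the 2 sets lie well apart even where the bars nearly touch.

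The gap, which is the lowest In-Cage CPM over the highest Exercise CPM, ran from 1.00 to 1.32 with a median of 1.051, and it was 1.1 or more in 21 of the 80 genes. The 3 genes nearest the limit on the inside had gaps of 1.001, 1.001 and 1.006 with ratios of means of 1.67, 1.84 and 1.67. The 3 nearest on the outside had gaps of 0.9987, 0.9982 and 0.9974 with ratios of 1.53, 1.65 and 1.29. The 3 inside thus had higher ratios than the 3 outside, though the highest outside (1.65) came close to the lowest inside (1.67). A few livers set the limit. The highest Exercise library was a TX SCI liver for 37 genes, and TX SCI replicate 4 alone for 29. TX SCI replicate 4 had the lowest scaling factor of the Exercise set (0.961). It had 14682 genes detected, beside a median of 15463.5 in that set. Whether these bear on the limit was not tested. The lowest In-Cage library was a CONT SCI + Large liver for 47 genes, and CONT SCI + Large replicate 4 alone for 31. Without TX SCI replicate 4 the rule took 172 genes, and without CONT SCI + Large replicate 4 it took 139.

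The number of genes also depended on how libraries were scaled. With library size alone, and no scaling factor, 24 genes met the rule, all of them among the 80. TMM raises the In-Cage set over the Exercise set by 0.19 on the log2 scale relative to library size alone. The 80 genes were still each higher on average in the In-Cage set by library size alone, by 0.18 to 1.64 on the log2 scale with a median of 0.61. TMM compares each library with 1 reference library, here CONT SCI replicate 2. With each of the 37 libraries as the reference in turn, 49 to 90 genes met the rule, and 43 of the 80 met it under every reference. Those 43 had ratios of means from 1.40 to 2.81 (median 1.77), and the other 37 had ratios from 1.3 to 3.47 (median 1.67). After thinning to 20066978 counts per library, 20 draws gave 54 to 88 genes with a median of 60, of which 46 to 74 were among the 80. With the reference library kept as above, the same draws gave 72 to 88 genes with a median of 77.5.

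The gene with the widest gap, ENSRNOG00000033100, stood near the middle of the 80 in its counts. Its CPM in the 5 uninjured In-Cage livers was 39.8, 35.7, 25.4, 38.5 and 27.1. It was 29.9, 26.1, 33.9, 45.8 and 34.7 in CONT SCI + Tiny, and 34.1, 27.2, 27.3, 34.5 and 30.8 in CONT SCI + Large. The 3 In-Cage groups overlapped one another throughout. In the Exercise set it was 12.6, 7.42, 11.5 and 12.4 in No SCI and 10.7, 11.3, 9.04 and 11 in CONT SCI. It was 13.4, 8.01, 19.3 and 16.8 in TX SCI. It was 10.2, 10.2, 7.05, 7.32 and 8.85 in CONT SCI + SWIM, and 18.5, 16.6, 15.2, 9.66 and 9.18 in CONT SCI + SWW. The highest Exercise livers were thus 2 of TX SCI and the first 3 of CONT SCI + SWW, all below the lowest In-Cage liver at 25.4. The set means were 32.7 ± 5.82 (SD, n = 15) and 11.6 ± 3.62 (SD, n = 22), a ratio of 2.81.

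The gene with the next widest gap, ENSRNOG00000007949, was one of the most counted of the 80. Its CPM in the 5 uninjured In-Cage livers was 1002, 1149, 818, 1035 and 1203. It was 933, 1131, 667, 873 and 989 in CONT SCI + Tiny, and 763, 672, 783, 932 and 947 in CONT SCI + Large. The group means fell in that order, from 1041 ± 149 to 918 ± 170 and 819 ± 118 (SD, n = 5 each), with overlapping groups. In the Exercise set it was 438, 485, 512 and 327 in No SCI, 513, 484, 514 and 543 in CONT SCI, and 497, 368, 370 and 505 in TX SCI. It was 439, 355, 260, 310 and 449 in CONT SCI + SWIM, and 457, 326, 426, 402 and 427 in CONT SCI + SWW. CONT SCI was the tightest and highest group there, and every CONT SCI liver was above every liver of both exercised groups. The set means were 926 ± 166 and 428 ± 78.5 (SD, n = 15 and 22), a ratio of 2.17.

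A pair of genes at the ends of the list was singled out after their values were seen. The most counted of the 80, whose CPM is not divided by gene length, ran from 1647 to 2461 in the In-Cage set (median 2019) and from 970 to 1597 in the Exercise set (median 1317), a ratio of means of 1.54. Its highest In-Cage group mean was that of CONT SCI + Tiny (2138 ± 238, SD, n = 5), and No SCI + Standard was the lowest (1875 ± 211). The gene with the highest ratio, 3.47, was among the least counted, with 4.21 to 13.2 CPM in the In-Cage set (median 6.87) and 0.875 to 4.08 in the Exercise set (median 2.12). Its In-Cage group means stepped down from 10.3 ± 2.70 without injury to 7.42 ± 1.27 after contusion in tiny cages and 5.26 ± 1.1 in large cages (SD, n = 5 each). The 10 genes with the widest gap among those with a mean count of 100 or more had ratios of 1.74 to 2.81, and the 10 most counted genes had ratios of 1.5 to 2.17, with 1 gene in both.

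**Figure D2:**
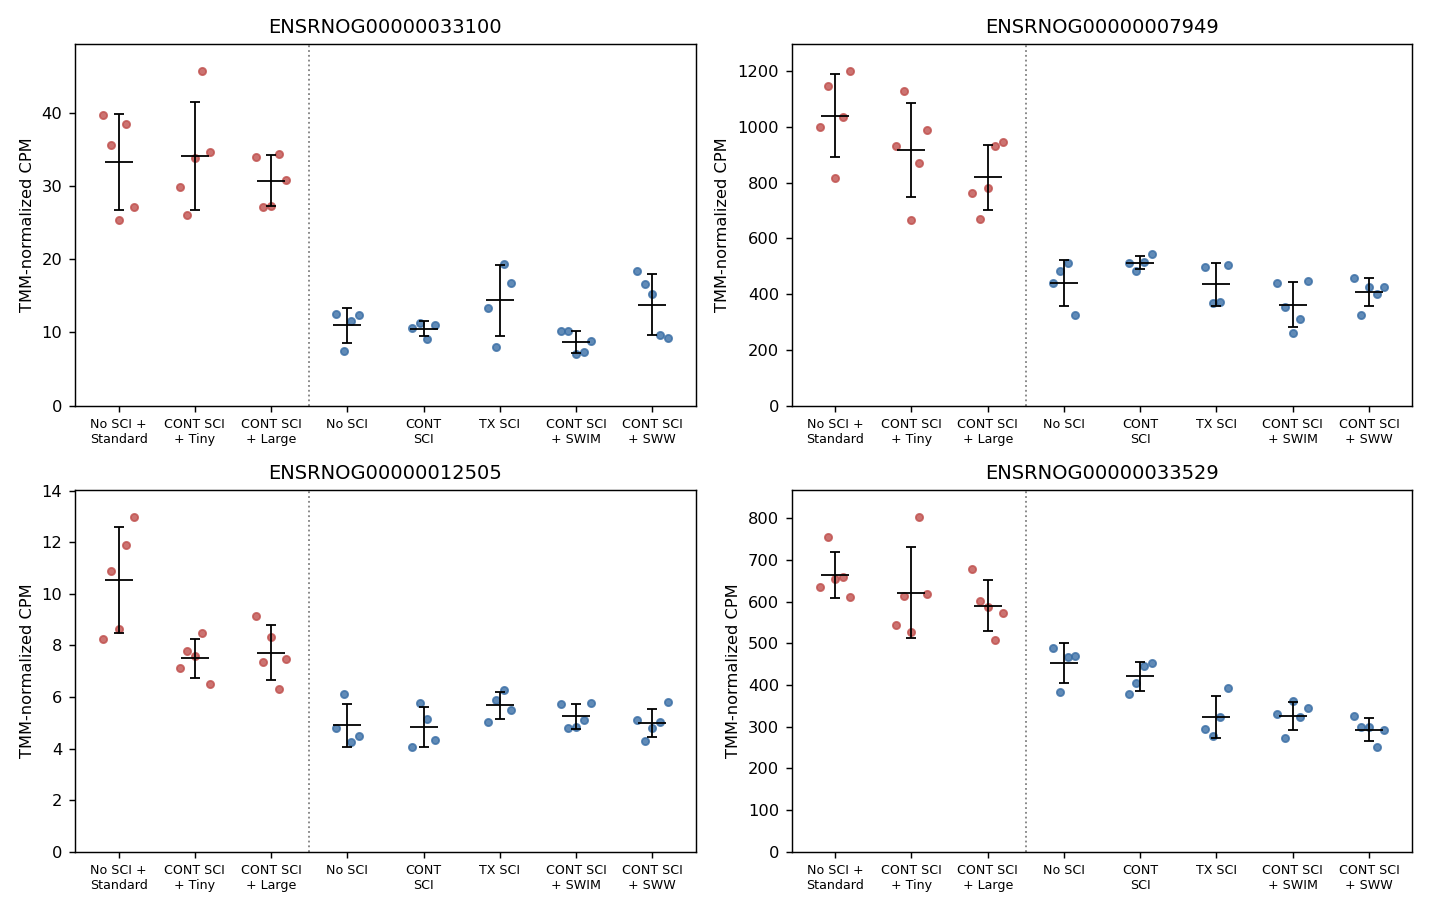
CPM by liver and group for the pair of genes with the widest gap (top) and the 2 called in a within-set test (bottom). Dots are livers, dark bars the group mean with its SD, red the In-Cage set (n = 5 a group) and blue the Exercise set (n = 4 or 5). For ENSRNOG00000033100 every red dot is at 25.4 or more and every blue one at 19.3 or less.

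Summed over the 80 genes, the pattern was a step between the sets with smaller differences inside them. The level of each gene was centred on its mean log2 CPM over the 37 libraries and averaged over the 80 genes for each liver. Uninjured rats in standard cages had the highest mean level at 0.60 ± 0.14, followed by CONT SCI + Tiny at 0.51 ± 0.11 and CONT SCI + Large at 0.41 ± 0.067 (SD, n = 5 each). In the Exercise set it was -0.25 ± 0.11 in TX SCI, -0.29 ± 0.12 in CONT SCI and -0.33 ± 0.078 in No SCI (SD, n = 4 each), then -0.39 ± 0.11 in CONT SCI + SWIM and -0.44 ± 0.13 in CONT SCI + SWW (SD, n = 5 each). Neighbouring groups in this order overlapped within each set, and the lowest In-Cage liver (0.32) stood 0.45 above the highest Exercise liver (-0.14).

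The share of all gene counts that the 80 genes took needs no scaling factor. It was 0.961 to 1.16% of an In-Cage library and 0.590 to 0.791% of an Exercise library, and the ratio of the set means was 1.49. The 3 In-Cage groups had nearly the same share, 1.06% ± 0.084 without injury, 1.04% ± 0.061 after contusion in tiny cages and 1.04% ± 0.043 in large cages (SD, n = 5 each). The order of the In-Cage groups in the mean level was thus not seen in the share of counts. Each gene has equal weight in the level, while genes weigh by their counts in the share. The level also uses the TMM scaling factor and the share does not. Which of these differences removed the order was not tested. In the Exercise set the share was 0.756% ± 0.024 in TX SCI, 0.730% ± 0.023 in No SCI, 0.714% ± 0.027 in CONT SCI, 0.672% ± 0.036 in CONT SCI + SWIM and 0.649% ± 0.039 in CONT SCI + SWW.

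**Figure D3:**
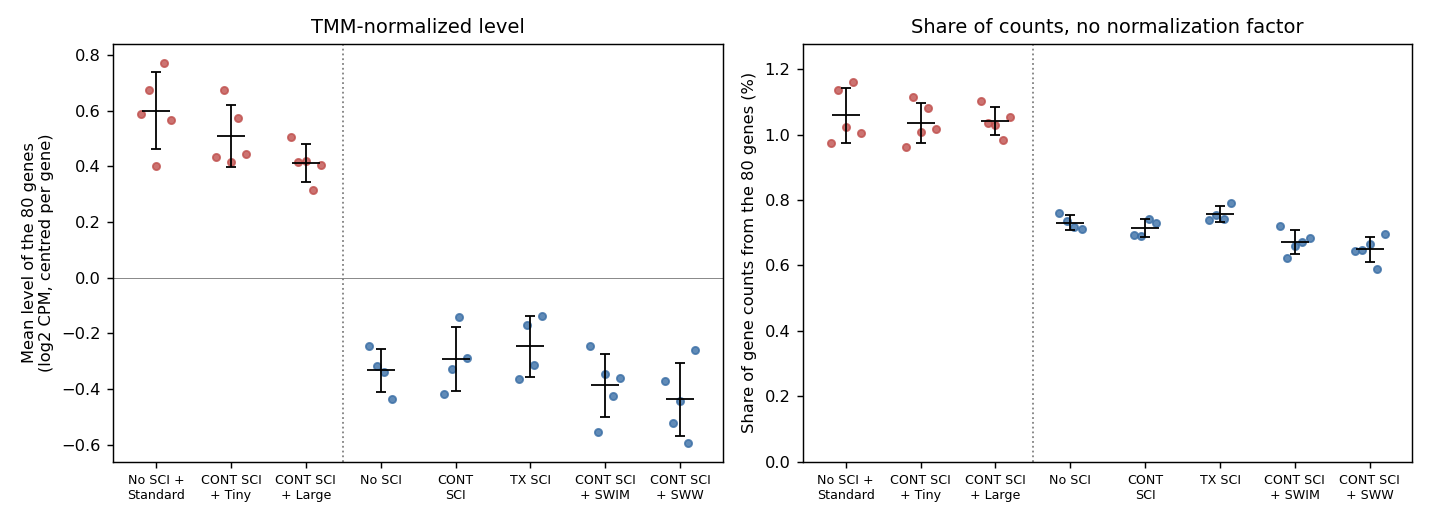
Left, mean level of the 80 genes in each liver on a log2 CPM scale centred per gene; right, their share of the gene counts in percent, starting at 0. Dots are livers, dark bars the group mean with its SD, red the In-Cage set and blue the Exercise set. All red dots lie above all blue ones in both panels, at 0.961% or more against 0.791% or less on the right.

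Livers under matched conditions could be set side by side across the sets. Rats with a contusion in tiny cages and no exercise were present in both, as CONT SCI + Tiny (n = 5) and CONT SCI (n = 4), and between them the 80 genes differed by a median of 0.76 on the log2 scale, from 0.23 to 2.10. Uninjured rats, in standard cages in the In-Cage set (n = 5) and in tiny cages in the Exercise set (n = 4), differed by a median of 0.87, from 0.30 to 2.69. Each of the 80 genes was higher in the In-Cage group of both pairs, which the rule fixes.

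Inside the In-Cage set, 57 of the 80 genes had their highest group mean in No SCI + Standard and 61 their lowest in CONT SCI + Large. These shares, 71.2% and 76.2%, stood beside 43.3% and 27.5% over all 12363 genes. In the Exercise set, 32 genes were highest in TX SCI (40%, beside 25.5% over all genes) and 38 were lowest in CONT SCI + SWW (47.5%, beside 23.1%). The rule also limits how far the groups of a set can lie apart.

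The comparisons within a set use another contrast than the one that chose the genes, but not other livers. The rule screens out genes with wide differences between the groups of a set, so few calls among the 80 are in part built in and their number is a description. Each comparison was fitted over all genes on the livers of the groups compared, with edgeR's quasi-likelihood test and Benjamini-Hochberg adjustment. All 80 genes passed the filter on low counts in each. Of 7 comparisons, 2 called 1 of the 80 genes and 5 called none at an adjusted p under 0.05.

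After contusion in tiny cages, against uninjured rats in standard cages, the 80 genes had a small median change, with most estimates lower. CONT SCI + Tiny against No SCI + Standard called 1 of them, which was lower, while 12.5% of all 11859 genes tested were called (7.04% lower). The median log2 fold change of the 80 genes was -0.07, beside -0.0036 over all genes. Estimates were lower for 57 of the 80 (71.2%, beside 50.3% of all genes). At an unadjusted p under 0.05 stood 9 of the 80, all lower (11.2%, beside 34.3% of all genes in either direction and 17.8% lower). The called gene, ENSRNOG00000012505, had 8.26, 10.9, 8.62, 11.9 and 13 CPM in No SCI + Standard and 7.12, 7.77, 7.58, 8.50 and 6.50 in CONT SCI + Tiny. The groups overlapped in 1 liver of each, since the CONT SCI + Tiny liver at 8.50 was above the No SCI + Standard liver at 8.26. Its log2 fold change was -0.49 (SE 0.15, adjusted p = 0.0482). It was called in 3 of the 10 fits that leave out 1 liver, with adjusted p from 0.0179 to 0.127, and it is one of the 3 genes just inside the limit of the rule. Single livers moved this comparison, since without No SCI + Standard replicate 1 it called 4 of the 80 and 2998 of all genes, and without No SCI + Standard replicate 4 it called 0 and 15. In CONT SCI + Large it stood at 9.12, 7.37, 8.31, 6.32 and 7.48 CPM, and in the Exercise livers between 4.07 and 6.29.

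CONT SCI + Large against No SCI + Standard leaned lower across most of the 80 genes without a call. The estimate was lower for 71 of the 80 (88.8%, beside 51.8% of all genes), and the median log2 fold change was -0.17, beside -0.02. None of the 80 was called, and 0.0337% of all 11852 genes were. At an unadjusted p under 0.05 stood 24, of which 23 were lower (28.7%, beside 14.6% of all genes). The smallest adjusted p among the 80 was 0.0635. Leaving out CONT SCI + Large replicate 1 brought 7 of the 80 past the threshold, among 2020 of all genes, and leaving out No SCI + Standard replicate 1 brought 4 among 1209. DESeq2 called 9 of the 80 and 1363 of all genes.

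CONT SCI + Large and CONT SCI + Tiny, which differ in cage size alone, were closer. The median log2 fold change of the 80 genes was -0.10, beside 0.01 over all genes. In the large cage 65 estimates were lower (81.2%, beside 48.1% of all genes). None of the 80 and none of the 11920 genes tested was called (0%), and 2 of the 80 had an unadjusted p under 0.05, both lower (2.5%, beside 1.59% of all genes lower). DESeq2 called 0 of the 80 and 3 of all genes.

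In the Exercise set, no difference in the 80 genes between contused and uninjured rats was detected with 4 rats a group. CONT SCI against No SCI gave a median log2 fold change of 0.02 (from -0.25 to 0.33), with a median standard error of 0.13. None was called (0.00801% of all 12482 genes), and 2 had an unadjusted p under 0.05, both higher (2.5%, beside 2.01% of all genes higher). TX SCI against No SCI gave a median of 0.08, from -0.59 to 0.57, and called none (0.0638% of all 12530 genes). At an unadjusted p under 0.05 stood 9 of the 80, 7 higher and 2 lower (11.2%, beside 12.1% of all genes). The TX SCI livers were taken at 8.5 weeks and the others at 11.5, so injury type and time cannot be told apart there.

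Both forms of exercise leaned lower against CONT SCI. For CONT SCI + SWIM the median log2 fold change was -0.09, beside 0.02 over all genes, with none of the 80 called (0.008% of all 12502 genes). Estimates were lower for 50 of the 80 (62.5%, beside 47.5% of all genes). At an unadjusted p under 0.05 stood 17, all of them lower (21.2%, beside 5.55% of all genes lower). For CONT SCI + SWW the median was -0.14, beside 0.04 over all genes, with 59 of 80 estimates lower (73.8%, beside 44.5% of all genes). This comparison called 1 of the 80, which was lower (0.759% of all 12642 genes were called, 0.285% lower). At an unadjusted p under 0.05 stood 23, of which 22 were lower (27.5%, beside 9.05%). The 2 comparisons share the 4 CONT SCI livers, so a high value in those livers lowers both estimates. Where the exercised rats were collected later than CONT SCI, as the study's text has it and the labels do not, exercise and time after injury cannot be told apart.

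The gene called for CONT SCI + SWW was ENSRNOG00000033529. Its CPM was 380, 406, 446 and 452 in CONT SCI and 325, 298, 300, 252 and 291 in CONT SCI + SWW, and these groups did not overlap. Its log2 fold change was -0.50 (SE 0.10, adjusted p = 0.048). It was called in 2 of the 9 fits that leave out 1 liver, with adjusted p from 0.0363 to 0.183, and without CONT SCI + SWW replicate 5 the calls were 7 of the 80 genes and 533 of all genes. The adjusted p was 0.0742 with all groups in one fit and 0.0961 with the replicate number as a block. Elsewhere in the set it was 331, 272, 362, 322 and 346 in CONT SCI + SWIM, 296, 277, 324 and 393 in TX SCI and 490, 384, 467 and 470 in No SCI. TX SCI, CONT SCI + SWIM and CONT SCI + SWW thus lay together below No SCI and CONT SCI in their means. The In-Cage livers had 634, 756, 656, 659 and 612 CPM without injury, 545, 614, 528, 803 and 618 in CONT SCI + Tiny, and 678, 603, 587, 508 and 574 in CONT SCI + Large.

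**Figure D4:**
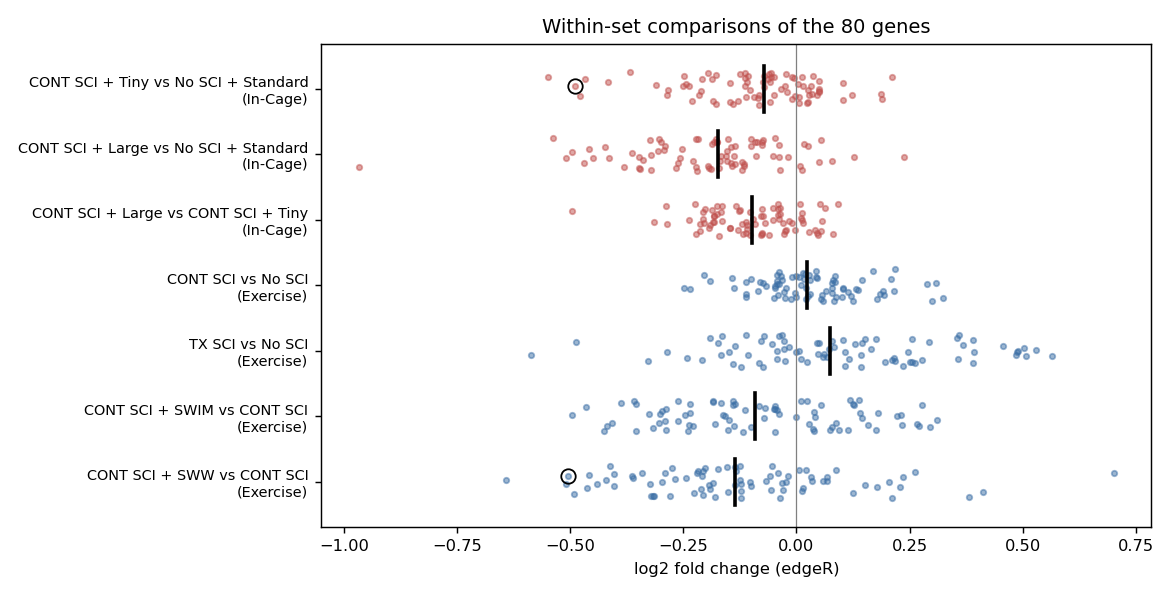
log2 fold change of the 80 genes in the 7 within-set comparisons, 1 dot a gene, with the median as a dark bar, red for the In-Cage set and blue for the Exercise set. Circles mark the 2 called genes, ENSRNOG00000012505 at -0.49 and ENSRNOG00000033529 at -0.50, and the medians lie between -0.17 and 0.08.

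The effect of injury with tiny housing was also compared between the sets, as the interaction of set and injury. None of the 80 genes was called (0.199% of all 12571 genes), 1 had an unadjusted p under 0.05 (beside 25.2% of all genes), and the median interaction was -0.09 on the log2 scale. The rule screens out genes with wide differences between the groups of a set. Few calls among the 80 are thus in part built in here as well, and these counts are a description. In this term the uninjured In-Cage rats lived in standard cages and the uninjured Exercise rats in tiny ones, so cage size enters the difference.

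The 80 genes moved together from liver to liver to a moderate degree. After each gene's group means were removed, the median correlation over the 3160 pairs of genes was 0.37 over the 15 In-Cage livers and 0.30 over the 22 Exercise livers, beside -0.0027 and -0.00054 over all genes. Of the pairs, 87.5% were positive in the In-Cage set and 77.8% in the Exercise set, and 2206 were positive in both. A correlation of 0.7 or more was reached by 291 pairs in the In-Cage set, 230 in the Exercise set and 43 in both. How many pairs over all genes were positive or reached 0.7 was not counted, so these numbers have no background beside them. These 43 pairs include a linked group of 23 genes, with ratios of set means from 1.40 to 2.58. The pair that held best in both sets, picked from all 3160, had 0.90 in the In-Cage livers and 0.92 in the Exercise livers. The values of 1 liver share a library, its depth and its scaling factor. The 80 genes were also all chosen in the same direction from these same CPM, unlike the genes of the background. How far the choice fixes positive correlations was not tested, so these correlations are a description.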

How the data were processed

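Poly-A RNA of 37 livers was sequenced as single-end reads. Per the study's methods and the labels, the authors checked reads with FastQC (0.10.1), aligned them to rn6 with STAR and counted them per Ensembl gene with HTSeq. Mitochondrial genes were not counted. The deposited table holds raw counts per gene, and every column matched 1 sample. CPM were computed here with TMM factors from genes kept by edgeR's filterByExpr (minimum count 10, minimum total 15). Within-set comparisons used edgeR (4.0.16) quasi-likelihood tests in R (4.3.3) with Benjamini-Hochberg adjustment over all genes tested, a threshold of 0.05 and only the groups compared. DESeq2 (1.42.0) was an alternative. The tests and the rule were tested on simulated data. Counting error weighs most on the 7 of the 80 genes with a mean count under 100, and its share of their spread was not separated.

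The 80 genes, the comparisons and the lists were chosen with earlier results of these data known. Genes printed by identifier were the pair with the widest gap (on CPM + 0.1, mean count 100 or more) and those called within a set, as 2 identifiers each way. The symbol lists could not be applied. Replicates are separate rats per the study's methods. All 68 pairs of libraries within groups differed beyond sampling noise (reduced chi-square 31.0 or more). Replicate numbers were not read as pairs of rats, for the reason given below. Neither a genome nor a table linking the identifiers to sequences was used here, so no sequence or position is given.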

Additional observations from a re-analysis of the deposited data

How the results depend on the processing

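The number of genes that met the rule was 24 by library size alone, 49 with No SCI + Standard replicate 4 or 5 as the TMM reference library, and 58 to 172 when 1 liver was left out. It was within 1.5 times of 80 under the other planned settings: 75 with relative log expression (RLE) scaling (70 of them among the 80), 62 after the planned thinning, 73 with a mean count of 100 or more and 80 with no minimum. The reference libraries and the 20 further thinning draws were added after seeing the data. The differences between the sets of the 4 printed genes kept their direction under every setting run. The rule had chosen these genes for that direction, and the settings only rescaled, thinned or summarized the same counts otherwise. The kept direction was thus largely fixed in advance. Counts within the sets were unstable. For the 80 genes, CONT SCI + Tiny against No SCI + Standard called 5 with DESeq2, 0 without the filter on low counts and 0 with all groups in one fit, and CONT SCI + Large against No SCI + Standard called 9, 1 and 5. TX SCI against No SCI called 2 with all groups in one fit, CONT SCI + SWIM against CONT SCI called 3 with DESeq2, and CONT SCI + SWW against CONT SCI called 12 with DESeq2 and 0 with all groups in one fit. The cause of these changes was not tested. With 1 liver left out, 0 to 4 were called for CONT SCI + Tiny, 0 to 7 for CONT SCI + Large and 0 to 7 for CONT SCI + SWW (7 without CONT SCI + SWW replicate 5), and 0 to 0 in the other comparisons and the interaction. Rats with the same replicate number did not deviate together in every pair (correlations from -0.51 to 0.48), so the numbers were not read as pairs. With the replicate block, 2 of the 80 were called for CONT SCI + Tiny and 0 for CONT SCI + SWW. The counts over all genes are not given for that setting in these comparisons, so they are not read against a background. ENSRNOG00000012505 had an adjusted p of 0.0565 without the filter, 0.0507 with all groups in one fit and 0.0619 with the block. Over all genes the block gave 1 call for CONT SCI + Large against No SCI + Standard, 13 for CONT SCI, 4 for TX SCI and 7 for CONT SCI + SWIM.

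Over all genes, DESeq2 called 2502 for CONT SCI + Tiny against No SCI + Standard, 1363 for CONT SCI + Large against it, 3 between the cages, 67 for CONT SCI, 291 for TX SCI, 261 for CONT SCI + SWIM, 913 for CONT SCI + SWW and 765 for the interaction. All groups in one fit gave 899, 935, 0 for CONT SCI, 268 for TX SCI, 10 for CONT SCI + SWIM and 20 for CONT SCI + SWW. Without the filter there were 116 for CONT SCI + Large and 3 for CONT SCI. With 1 liver left out, the counts over all genes ran from 15 to 2998 for CONT SCI + Tiny, 0 to 2020 for CONT SCI + Large, 0 to 1 between the cages, 1 to 9 for CONT SCI, 2 to 23 for TX SCI, 0 to 2 for CONT SCI + SWIM, 0 to 533 for CONT SCI + SWW and 1 to 2010 for the interaction.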
